A study of Mus musculus with 13 samples.

Results

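Immediate early genes are genes that a cell transcribes within minutes of a stimulus, from factors already present in the cell and without new protein synthesis. Their transcripts decay quickly, and many of their proteins are transcription factors that switch on a slower wave of genes, or phosphatases and other brakes that end the signal. In heart muscle they are known to respond to stretch, to pressure load and to catecholamines. The 10 genes listed were Fos, Jun, Junb, Jund, Egr1, Ier2, Ier3, Atf3, Dusp1 and Myc, and each was taken by its annotated probe. Of these, 8 were measured, each by 1 probe, among 8336 genes tested, while Ier2 and Myc were not analysed here. Gene symbols were at hand for 11078 of the 13557 probes that passed the detection filter, so these 2 genes may be among the 2479 that could not be named.

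The hearts came from male C57BL/6 mice of 8 to 10 weeks, 13 in all, collected 1 week after surgery, with 1 heart on each Illumina MouseRef-8 array. Transverse aortic constriction (TAC) ties the aortic arch down to a fixed width so that the left ventricle works against a raised pressure, and sham mice had the operation without the constriction. Tauroursodeoxycholic acid (TUDCA), a bile acid that eases protein folding in the endoplasmic reticulum, was given daily by gavage at 300 mg/kg from the day of surgery, and vehicle mice received water. The groups were Veh-Sham, Veh-TAC and TUDCA-Sham with 3 hearts each, and TUDCA-TAC with 4. Hearts are numbered by the biological replicate number of their description, which is not the number in their title: in that order the titles number Veh-Sham 3, 4 and 6, Veh-TAC 3, 8 and 9, TUDCA-Sham 1, 4 and 6, and TUDCA-TAC 2, 3, 4 and 1. All mice had Avertin anaesthesia for surgery and were killed by cervical dislocation, and the time between gavage, handling and removal of the heart is not given in the sources used here. RNA came from the whole heart, so it holds transcripts of muscle, fibroblasts, vessels and immune cells, and fewer cells of a type and less RNA per cell cannot be told apart. The cardiomyocyte genes Myh6 (myosin heavy chain) and Actc1 (cardiac actin) lay at or above percentile 98.9 of all genes in every heart.

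Values are log2 signals after background correction and quantile normalization, so a difference of 1 is a doubling. The median raw intensity, most of which is array background, was 343 to 355 on 8 arrays and 294 to 307 on TUDCA-Sham 3 and TUDCA-TAC 1 to 3, and 228.7 on TUDCA-TAC 4. The array of TUDCA-TAC 4 also stood apart in its signal over background (90th over 25th percentile of raw intensity), 19.3 against 6.49 to 8.52 on the other 12. The comparison of Veh-TAC with Veh-Sham lies wholly within the brighter arrays, whereas all 4 TUDCA-TAC hearts lie outside them, so in that group treatment and array background cannot be told apart. A model term for array background rests mainly on TUDCA-Sham 3 and TUDCA-TAC 4, the arrays farthest from the rest of their group. Such a term separates treatment from background poorly. Calls rest on limma, with p adjusted over the 8336 genes and a threshold of 0.05.

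The promoters of 7 of the 10 genes were read from RefSeq (GRCm38.p6), and those of Egr1, Ier2 and Myc were not read. Of the 7, 5 are shown: Fos, with Junb and Dusp1, which each varied with it from heart to heart, and Atf3 and Ier3, which were called. Each run is the 250 bases before the transcription start. Capitals mark the letters TGACG on either strand, the half-site of the cAMP response element (CRE), to which CREB and ATF proteins bind. Fos is at chr12:85473640-85473889 (plus strand), Junb at chr8:84978749-84978998 (minus), Dusp1 at chr17:26508473-26508722 (minus), Atf3 at chr1:191183334-191183583 (minus) and Ier3 at chr17:35821463-35821712 (plus).
Fos: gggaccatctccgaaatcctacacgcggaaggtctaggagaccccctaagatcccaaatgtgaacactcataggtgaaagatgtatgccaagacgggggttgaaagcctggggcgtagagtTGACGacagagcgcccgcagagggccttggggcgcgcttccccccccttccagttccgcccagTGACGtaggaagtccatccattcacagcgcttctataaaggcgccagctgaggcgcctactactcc
Junb: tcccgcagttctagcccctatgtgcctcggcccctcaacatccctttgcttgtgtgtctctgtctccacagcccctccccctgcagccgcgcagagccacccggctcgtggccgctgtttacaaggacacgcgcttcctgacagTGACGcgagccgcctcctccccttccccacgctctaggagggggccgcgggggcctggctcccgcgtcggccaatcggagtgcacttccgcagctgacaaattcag
Dusp1: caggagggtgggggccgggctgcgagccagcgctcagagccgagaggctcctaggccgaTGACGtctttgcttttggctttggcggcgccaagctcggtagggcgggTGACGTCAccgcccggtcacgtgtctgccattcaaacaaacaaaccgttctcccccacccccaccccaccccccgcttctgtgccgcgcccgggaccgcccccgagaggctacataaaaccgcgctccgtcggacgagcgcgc
Atf3: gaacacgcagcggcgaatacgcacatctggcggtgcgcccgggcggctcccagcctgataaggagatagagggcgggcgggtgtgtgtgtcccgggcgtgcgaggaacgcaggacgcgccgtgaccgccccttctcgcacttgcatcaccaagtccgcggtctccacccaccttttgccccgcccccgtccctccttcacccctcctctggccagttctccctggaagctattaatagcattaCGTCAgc
Ier3: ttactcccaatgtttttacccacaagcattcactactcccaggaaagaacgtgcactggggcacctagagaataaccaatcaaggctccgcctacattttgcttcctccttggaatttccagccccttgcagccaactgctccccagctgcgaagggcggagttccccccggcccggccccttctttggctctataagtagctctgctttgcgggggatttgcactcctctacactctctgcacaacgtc

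The half-site stood in 4 of the 7 promoters read, those of Fos, Junb, Dusp1 and Atf3, and in 17.8% of 32851 promoters of the same length. The motifs were chosen with the values of the members known, so these shares are a description and no test of enrichment. In Dusp1 the matches that begin 143 and 140 bases before the start overlap and form the full element TGACGTCA, which 1.55% of promoters hold. A TATA box (TATAAA on either strand, in 12.4% of promoters) was matched among the 7 in Fos alone, 33 bases before the start. No AP-1 site (TGANTCA, 6.75% of promoters) and no CArG box (1.47%) was matched in these 7 windows, both strands read, and the windows say nothing of more distant sequence.

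Fos, the partner of JUN proteins in the transcription factor AP-1, had the widest spread of the 8 genes in the main processing. In the authors' table the SD within groups was 0.47 for Fos and 0.53 for Egr1. Its signals were 6.69, 9.58 and 8.55 in Veh-Sham, 7.63, 8.13 and 8.48 in Veh-TAC, 6.39, 8.47 and 7.98 in TUDCA-Sham, and 8.54, 8.42, 7.79 and 6.48 in TUDCA-TAC, in order of replicate. The highest and the lowest heart differed 9.12-fold, and both were sham-operated. Hearts under 6.7 occurred in 3 of the 4 groups, and every pair of groups overlapped. The raw intensity, before any background was taken off, ran from 286.9 to 916.2, a 3.19-fold span. In the hearts under 6.7, Veh-Sham 1, TUDCA-Sham 1 and TUDCA-TAC 4, it was 398, 367.7 and 286.9. The medians of those arrays were 355.3, 343.2 and 228.7. Fos was thus detected there but near background, where background correction widens a log2 span. The range within the Veh-Sham group alone, 2.88 log2 units, exceeded the range of the 4 group means, 0.66.

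**Figure D1:**
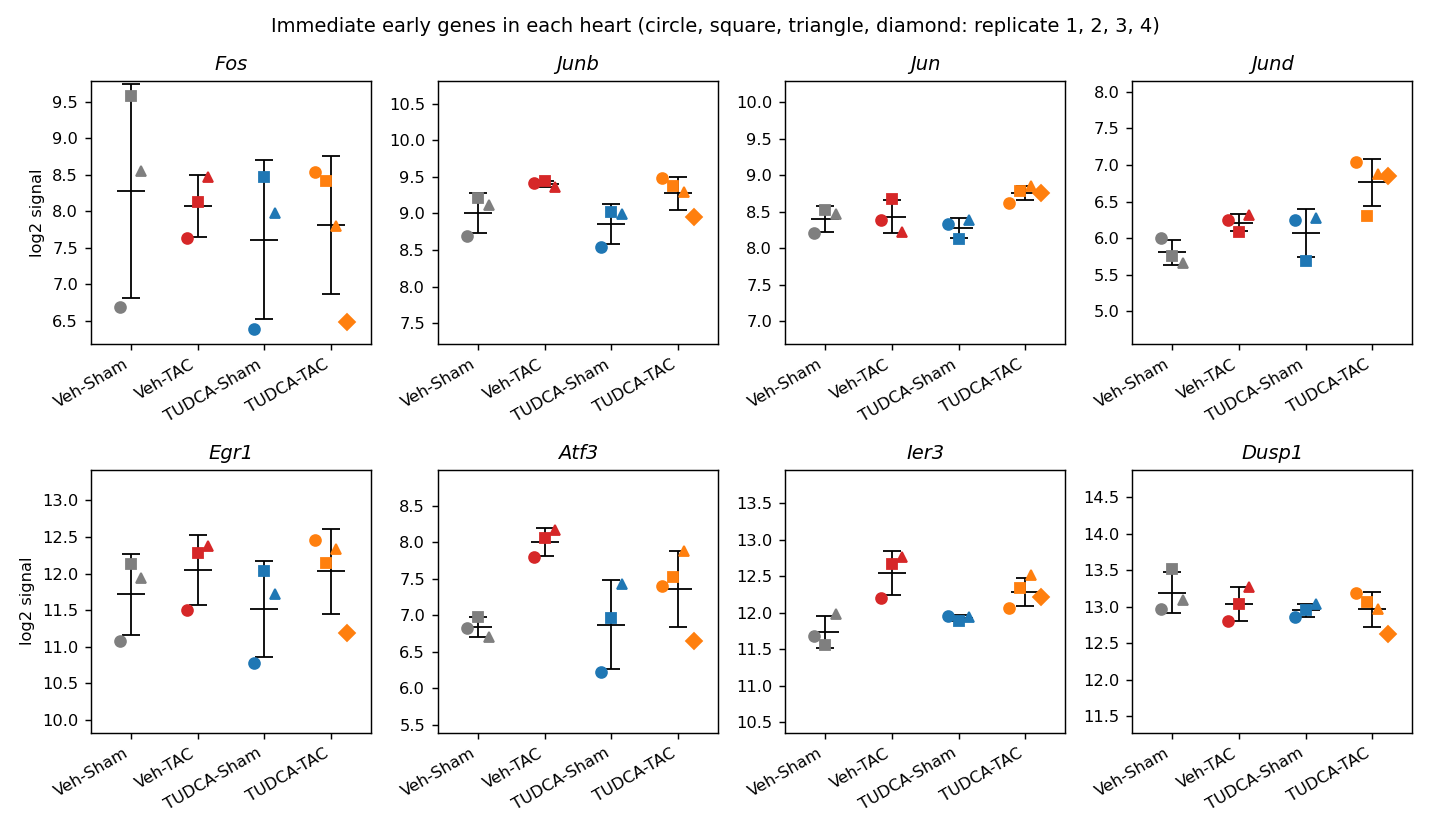
Log2 signal (vertical axis, 3.6 log2 units in each panel) of the 8 measured immediate early genes in each of the 13 hearts by group, with the group mean and SD as black bars. Fos runs from 6.39 to 9.58 with all groups overlapping, while Ier3 and Atf3 lie higher in all 3 Veh-TAC hearts than in all 3 Veh-Sham hearts.

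The difference in Fos between Veh-TAC and Veh-Sham was −0.20 with a standard error (SE) of 0.73 (adjusted p = 0.874), and its 95% interval reached from −1.78 to 1.39. Thus neither a rise nor a fall of more than 2-fold could be told from no change. The residual SD within groups was 1.04 log2 units, against a median of 0.21 over all genes. Under the 4 other scalings of the same arrays it was 0.47 to 0.96, and lay between percentiles 99.4 and 99.9 of all genes. Only 7.51% of the variation of Fos lay between groups, whereas the median gene had 43.8%.

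Junb, an AP-1 subunit, was far more even. Its signals were 8.69, 9.21 and 9.11 in Veh-Sham, 9.41, 9.44 and 9.36 in Veh-TAC, 8.55, 9.02 and 9.00 in TUDCA-Sham, and 9.48, 9.38, 9.29 and 8.95 in TUDCA-TAC. The 3 Veh-TAC hearts lay above the 3 Veh-Sham hearts, and the TUDCA-TAC and TUDCA-Sham hearts overlapped through TUDCA-TAC 4. The difference was 0.40 (SE 0.18, adjusted p = 0.120) with vehicle and 0.42 (SE 0.17, adjusted p = 0.230) with TUDCA, and neither was called. With median scaling in place of quantile normalization both were called (0.60, adjusted p = 0.0118, and 0.58, adjusted p = 0.0434), but that scaling also moved the median of all genes to 0.12 in each comparison. With array weights the first was called (0.46, adjusted p = 0.0381).

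Jun, the prototype partner of FOS, ran from 8.20 to 8.53 in Veh-Sham, 8.23 to 8.68 in Veh-TAC and 8.12 to 8.38 in TUDCA-Sham, and its 4 TUDCA-TAC hearts were at 8.63, 8.79, 8.86 and 8.75. The TUDCA-TAC hearts were all above the TUDCA-Sham hearts, while the vehicle groups overlapped. The difference was 0.47 with TUDCA (SE 0.13, adjusted p = 0.0805) and 0.03 with vehicle (SE 0.14, adjusted p = 0.905), and the difference between these responses was 0.45 (SE 0.19, adjusted p = 0.208). Jun had the smallest residual SD of the 8 in the main processing, 0.16. In the authors' table that of Jund was smaller (0.067 against 0.089), and with median scaling that of Junb was (0.16 against 0.21).

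Jund, the AP-1 subunit that is present in resting cells in many tissues, was close to background, with raw intensities of 309.8 to 373.3. It was detected in 0 of 3 Veh-Sham hearts, 3 of 3 Veh-TAC, 2 of 3 TUDCA-Sham and 4 of 4 TUDCA-TAC. Its signals were 6.00, 5.75 and 5.66 in Veh-Sham, 6.24, 6.08 and 6.32 in Veh-TAC, 6.25, 5.69 and 6.27 in TUDCA-Sham, and 7.04, 6.30, 6.87 and 6.85 in TUDCA-TAC. All TAC hearts were above all sham hearts of the same treatment. Since Veh-Sham was not above background, the signal there has only a bound, and the mean of Veh-TAC lay 1.045-fold above that bound. The difference was not called (adjusted p = 0.157), and the 95% interval of the measured values, −0.02 to 0.84, included no change. With TUDCA the difference was 0.70 (SE 0.19, adjusted p = 0.0805), and TUDCA-TAC exceeded Veh-TAC by 0.55 (SE 0.19, adjusted p = 0.0623). Without TUDCA-TAC 2 both of these were called (0.85, adjusted p = 0.0380, and 0.71, adjusted p = 0.0199), as was the second without TUDCA-Sham 2 (adjusted p = 0.0438). Leaving out 1 heart also raised the adjusted p to as much as 0.301 and 0.198. With array background as a term they were 0.59 (adjusted p = 0.323) and 0.39 (0.583). In the authors' table they were 0.19 (adjusted p = 0.154) and 0.15 (0.118). Raw intensity, before any background was taken off, was 318.3 to 365.3 in TUDCA-TAC and 359.1 to 373.3 in Veh-TAC.

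Egr1, a zinc finger factor that serum, growth factors and stretch induce, resembled Fos in its spread. The signals were 11.08, 12.13 and 11.94 in Veh-Sham, 11.50, 12.27 and 12.38 in Veh-TAC, 10.78, 12.04 and 11.73 in TUDCA-Sham, and 12.46, 12.14, 12.33 and 11.19 in TUDCA-TAC. In each group 1 heart lay well under the others, and all groups overlapped. The difference was 0.33 (SE 0.41, adjusted p = 0.597) with vehicle and 0.52 (SE 0.38, adjusted p = 0.549) with TUDCA. The residual SD of Egr1 was 0.57, at percentile 98.6 of all genes and 97.3 to 99.7 under the other scalings, and 17.9% of its variation lay between groups. Its raw intensity of 2034.6 to 6153.2 was far from background in every heart.

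Atf3, a stress-induced member of the ATF family, was one of the 2 genes of the list called between Veh-TAC and Veh-Sham. Its signals were 6.83, 6.98 and 6.71 in Veh-Sham, 7.79, 8.06 and 8.16 in Veh-TAC, 6.22, 6.96 and 7.43 in TUDCA-Sham, and 7.40, 7.53, 7.87 and 6.64 in TUDCA-TAC. With vehicle the groups were well apart, while with TUDCA both groups spread over more than 1.2 log2 units and overlapped. TAC raised Atf3 2.25-fold with vehicle (log2 difference 1.17, SE 0.31, adjusted p = 0.0171). The rise stayed between 1.09 and 1.27 when any 1 heart was left out, but it was no longer called without Veh-Sham 3 (adjusted p = 0.0557), Veh-TAC 2 (0.0592) or Veh-TAC 3 (0.0610). In the authors' normalized table, whose values lay within 0.119 of quantile normalized log2 raw intensity, the rise was 0.46 (adjusted p = 0.00932).

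With TUDCA the difference in Atf3 after TAC was 0.49 (SE 0.29, adjusted p = 0.438), and TUDCA-TAC lay below Veh-TAC by 0.64 (SE 0.29, adjusted p = 0.153). The first moved to 0.16 without TUDCA-Sham 1, 0.77 without TUDCA-Sham 3 and 0.32 without TUDCA-TAC 3, with no call. The difference between the responses was −0.68 with a 95% interval of −1.60 to 0.25 (adjusted p = 0.414), and it was −0.40 without TUDCA-Sham 3 and −0.44 without TUDCA-TAC 4. Hence a smaller response with TUDCA was not shown. With the array background as a term in the model, TUDCA-TAC and Veh-TAC differed by −0.30 (adjusted p = 0.805).

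Ier3, a stress-induced protein that affects cell survival, was the other gene called. The signals were 11.68, 11.55 and 11.98 in Veh-Sham, 12.20, 12.67 and 12.76 in Veh-TAC, 11.96, 11.89 and 11.94 in TUDCA-Sham, and 12.07, 12.33, 12.52 and 12.21 in TUDCA-TAC. Every TAC heart was above every sham heart of the same treatment. TAC raised Ier3 1.75-fold with vehicle (0.80, SE 0.17, adjusted p = 0.00438), with 0.69 to 0.98 when any 1 heart was left out and an adjusted p of at most 0.0242, although the methods' t-test gave an adjusted p of 0.0930. That name stands for Student's t-test of 2 groups, which the study lists among its general statistics. The study states no adjustment for its array calls, and the adjustment over all genes was added here. With TUDCA the difference was 0.35 (SE 0.15, adjusted p = 0.276), and the difference between the responses was −0.45 (95% interval −0.94 to 0.04, adjusted p = 0.300).

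Dusp1, the phosphatase that switches off p38, JNK and ERK kinases, did not differ detectably between any 2 groups. The signals were 12.97, 13.52 and 13.09 in Veh-Sham, 12.81, 13.03 and 13.26 in Veh-TAC, 12.86, 12.95 and 13.04 in TUDCA-Sham, and 13.19, 13.07, 12.96 and 12.63 in TUDCA-TAC. All groups overlapped, and the 3 TUDCA-Sham hearts were the closest to each other. The difference after TAC was −0.16 with vehicle (95% interval −0.54 to 0.22, adjusted p = 0.553) and 0.02 with TUDCA (−0.34 to 0.37, adjusted p = 0.979). These intervals leave no room for a 1.5-fold change in either comparison.

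Set against the whole array, the list did not stand out in its number of calls. Between Veh-TAC and Veh-Sham 2 of 8 genes were called, both higher, where 25.0% of all genes were called and 12.5% were called higher. In the same comparison 4 of 8 (Junb, Jund, Ier3 and Atf3) had groups that did not overlap, all higher in Veh-TAC, beside 19.4% of all genes that did so in that direction. For Jund the Veh-Sham values were not above background. The median difference of the 8 genes was 0.37, against −0.03 for all genes. The members were chosen with earlier results of these data known, so these shares and medians are a description. Between TUDCA-TAC and TUDCA-Sham limma called 0 of 8, where 1.79% of all genes were called, though 4 (Jun, Junb, Jund and Ier3) had an unadjusted p under 0.05, all higher after TAC, as had 16.6% of all genes in either direction, and the methods' t-test called 0 after adjustment. The groups did not overlap for Jun, Jund and Ier3 there, beside 6.72% of all genes, and the median was 0.45 against 0.00.

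**Figure D2:**
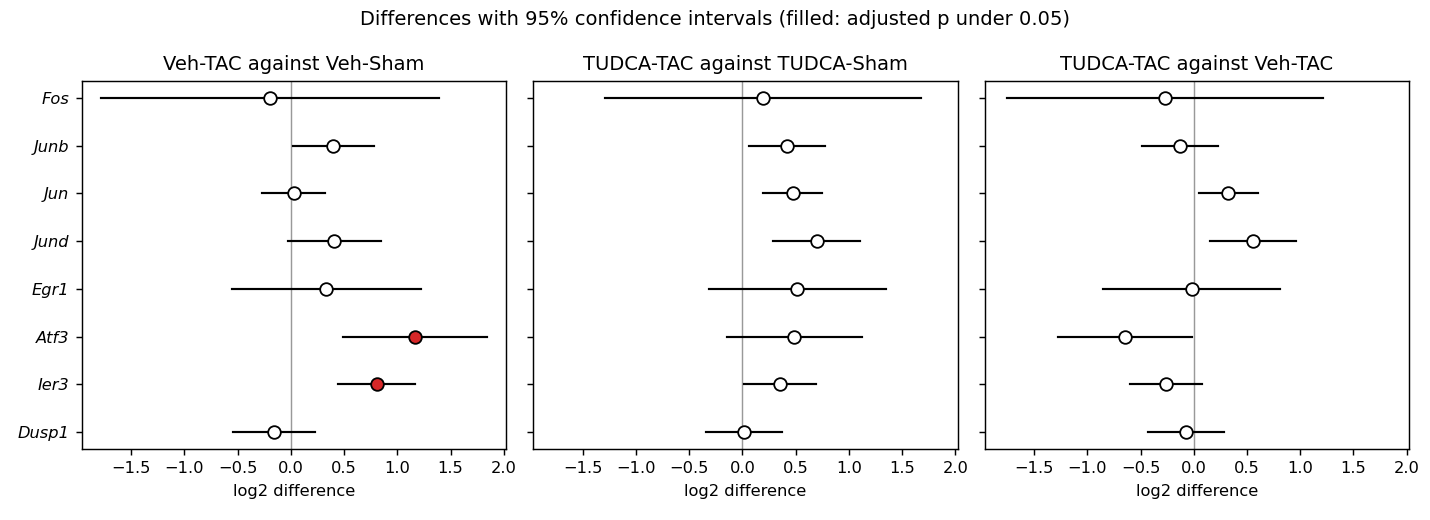
Log2 difference (horizontal axis) of each immediate early gene with its 95% confidence interval in 3 comparisons, filled where the adjusted p was under 0.05. Only Atf3 (1.17) and Ier3 (0.80) between Veh-TAC and Veh-Sham are filled, and the interval of Fos spans more than 2 log2 units in every panel.

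Between TUDCA-TAC and Veh-TAC limma called 0 of 8, where 16.4% of all genes were called. An unadjusted p under 0.05 was found for 3 (Jun and Jund higher, and Atf3 lower), beside 31.2% of all genes. Between TUDCA-Sham and Veh-Sham 0 of 8 were called by limma (all genes 0%), and 0 had an unadjusted p under 0.05, beside 2.45% of all genes. For the difference between the responses limma called 0 of 8 (all genes 2.14%), and 1, Jun, had an unadjusted p under 0.05, beside 19.6% of all genes. The methods' t-test also called 0 of 8 after adjustment in both comparisons of TUDCA with vehicle. These comparisons share hearts with those of TAC and sham, so the values stand side by side and are not separate evidence.

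When the spread between the 4 groups was set against the spread within them, 3 of the 8 genes were called by the moderated F-test (22.1% of all genes): Jund (adjusted p = 0.0130), Ier3 (0.0138) and Atf3 (0.0420). Jund was detected in 9 hearts and in no Veh-Sham heart, so it passed the detection filter only through the other groups. Its call and its share of variation rest partly on values not above background, and are given as a description. Jun (0.0579) and Junb (0.0985) were not, nor were Egr1 (0.631), Dusp1 (0.637) and Fos (0.870). The share of variation between groups was 75.1% for Ier3, 74.0% for Jund, 66.1% for Jun, 61.7% for Atf3 and 55.5% for Junb. For Dusp1, Egr1 and Fos it was 20.4%, 17.9% and 7.51%, below the median gene. Jund was no longer called in the authors' table (adjusted p = 0.0502) or with array background as a term (0.151), Ier3 was not without Veh-TAC 2 (0.0561), and Atf3 was not in 9 of the 13 settings that leave out 1 heart (up to 0.139, without Veh-TAC 3).

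**Figure D3:**
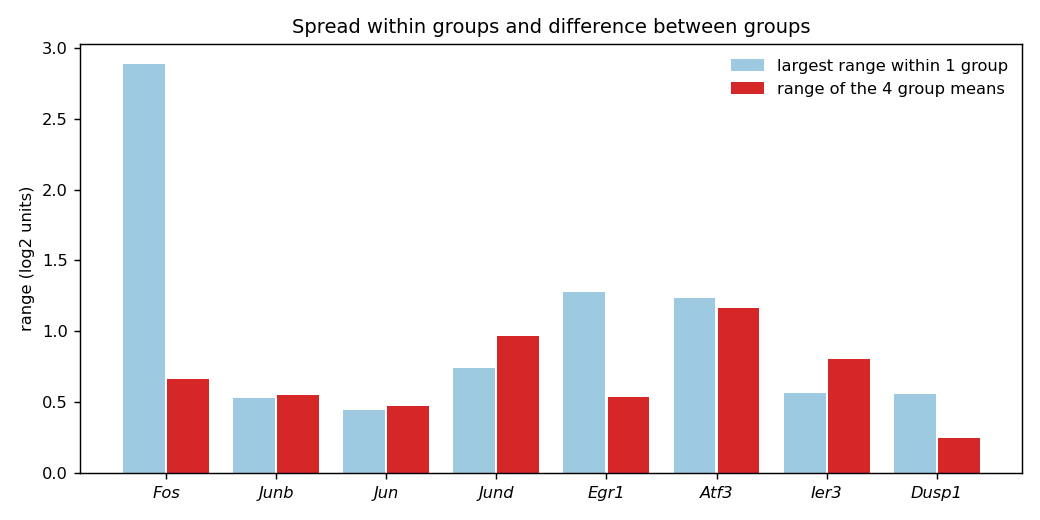
Range in log2 units (vertical axis from 0) within the widest single group and range of the 4 group means for each of the 8 genes. For Fos the range within Veh-Sham is 2.88 and that of the means is 0.66, whereas for Ier3 the range of the means, 0.80, exceeds the widest group, 0.57.

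It was then asked whether a heart that was high in one of these genes for its group was also high in the others. The group mean was taken off each value, and 28 pairs of genes were tested over the 13 hearts by exact two-sided permutation of hearts within groups, with adjustment over the 28 pairs. In 5 pairs the deviations varied together, and these joined Fos, Junb, Egr1 and Dusp1. Fos and Junb had a Pearson r of 0.949 (exact permutation adjusted p = 0.0189) and a Spearman rho of 0.879 (0.0351). Fos and Egr1 had r = 0.921 (exact permutation adjusted p = 0.0135) and rho = 0.830 (0.0508). For Fos and Dusp1 r was 0.834 (exact permutation adjusted p = 0.0135) and rho was 0.857 (0.0162).

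The remaining 2 pairs were Junb with Egr1 (r = 0.880, exact permutation adjusted p = 0.0486, rho = 0.764, adjusted p = 0.0540) and Egr1 with Dusp1 (r = 0.798, adjusted p = 0.0189, rho = 0.731, adjusted p = 0.0508). Junb with Dusp1, the last pair among these 4 genes, had r = 0.702 (adjusted p = 0.0504). Jun and Ier3 did not follow Fos, with r of 0.14 and 0.03, nor did Jund, with −0.44, and none of these 3 was past the threshold. Atf3 lay between. Its r was 0.750 with Egr1 (exact permutation adjusted p = 0.0824), 0.658 with Junb (0.197), 0.620 with Fos (0.155) and 0.595 with Dusp1 (0.0633), and its rho with Dusp1 was 0.720 (0.0508). None of these passed, and whether Atf3 differs in this from the 4 genes was not tested.

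**Figure D4:**
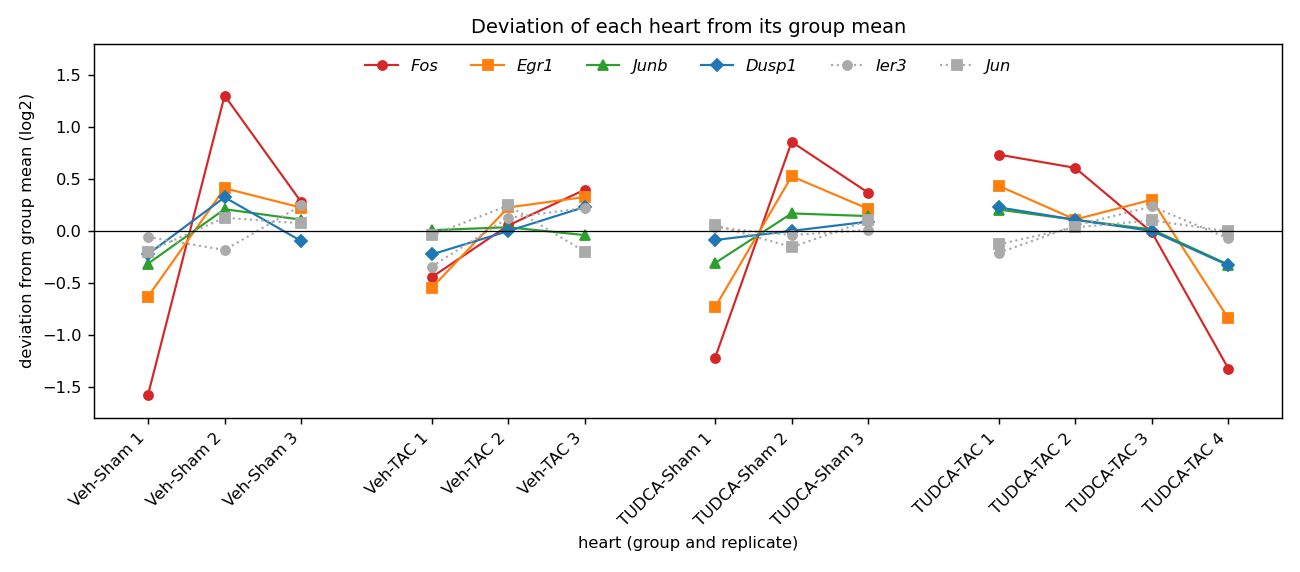
Deviation of each heart from its group mean (vertical axis, log2) for Fos, Egr1, Junb and Dusp1 in colour and for Jun and Ier3 in grey. Each of the 4 coloured genes is the lowest of its group in Veh-Sham 1, TUDCA-Sham 1 and TUDCA-TAC 4, where Fos deviates by −1.58, −1.22 and −1.33.

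The order of the hearts was then read within each group. Veh-Sham 1, TUDCA-Sham 1 and TUDCA-TAC 4 were the lowest of their group in all 4 genes, and Veh-TAC 1 in 3 of 4. Veh-Sham 2 and TUDCA-TAC 1 were the highest of their group in all 4, and Veh-TAC 3 and TUDCA-Sham 2 in 3 of 4. The deviation of Fos reached from −1.58 in Veh-Sham 1 to 1.30 in Veh-Sham 2. A shared deviation of this size in 1 heart thus exceeded any difference between group means of Fos.

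When the 2 hearts farthest from the median of the first gene were left out, r was 0.726 to 0.899 in the 5 pairs. The number of pairs past the threshold depended on TUDCA-TAC 4, whose array stood apart: without it 0 of 28 passed. Without TUDCA-TAC 2 it was 1, without TUDCA-Sham 1 it was 2, and without any 1 of the Veh-Sham hearts it was 3. In the 8 hearts of the brighter arrays alone, a split chosen after the data were seen, r was 0.942 for Fos and Junb, 0.923 for Fos and Egr1 and 0.758 for Fos and Dusp1. With 72 orders of these hearts the smallest adjusted p that a pair alone can reach is 0.389, so the test could not be read there.

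The deviations of these genes did not stand alone on the arrays. The first axis of within-group variation over all genes held 39.4% of it, and the deviation of Fos had r = 0.607 with that axis and 0.697 with the mean of 54 ribosomal protein genes. With the array background r was 0.313 for Fos. Over all genes 149 had r above 0.8 with Fos, and 71 had at least the r of Dusp1. By rank of r among all genes, Junb stood at percentile 99.99, Egr1 at 99.87 and Dusp1 at 99.11, with Atf3 at 89.68 and Ier3 at 51.92. The part of this axis and of array quality in the pattern was not tested.

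Outside the list, the 5 genes closest to Fos over the 13 hearts were Nsmce2 (r = 0.934, rho = 0.929), which encodes a SUMO ligase of the SMC5/6 complex, Triqk (0.932, 0.934), Rps12 (0.928, 0.956), a protein of the small ribosomal subunit, Tmem216 (0.928, 0.857) and the pseudogene Tyms-ps (r = 0.924, rho = 0.852). They are given as a description, since the 13 points share arrays and depth. The signal of Rps12 moved from 15.24 to 15.76 over all hearts, that of Nsmce2 from 10.41 to 11.07, that of Tmem216 from 8.73 to 9.44, that of Triqk from 9.10 to 10.43 and that of Tyms-ps from 6.58 to 8.77. Each of these spans was smaller than that of Fos, least so for Tyms-ps.

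Of 104 related genes measured, counted once each over the lists that follow, 28 were higher and 8 lower after TAC with vehicle (34.6%, beside 25.0% of all genes). The lists were chosen with earlier results of these data known, so this share and those below are given as a description. Whether the related genes differ in this from Fos or Egr1 was not tested. Egr2, a relative of Egr1, was at 7.23, 7.11 and 7.72 in Veh-Sham, 8.32, 9.43 and 9.55 in Veh-TAC, 7.28, 7.44 and 7.18 in TUDCA-Sham, and 7.68, 8.18, 8.53 and 7.09 in TUDCA-TAC. All Veh-TAC hearts were above all Veh-Sham hearts, and the TUDCA groups overlapped. Egr2 rose by 1.75 log2 units with vehicle (SE 0.36, adjusted p = 0.00474; 0.0824 with the methods' t-test). Between TUDCA-TAC and Veh-TAC it fell by 1.23 (SE 0.34, adjusted p = 0.0304), a call that was lost without Veh-TAC 2 (0.129), Veh-TAC 3 (0.128), TUDCA-TAC 1 (0.0561) or TUDCA-TAC 4 (0.0682), and with array background as a term (0.649).

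Of 5 other AP-1 and ATF subunits measured, 2 rose and 0 fell in Veh-TAC against Veh-Sham, the stress factor Atf4 (1.11, SE 0.23, adjusted p = 0.00415) and Jdp2 (0.81, SE 0.24, adjusted p = 0.0276), which represses AP-1. Jdp2 was no longer called without Veh-Sham 2 (0.0867), Veh-Sham 3 (0.0820), Veh-TAC 1 (0.0719) or Veh-TAC 2 (0.0861), and 1 other subunit fell without Veh-Sham 1 or TUDCA-Sham 1, and 2 without TUDCA-TAC 4. The methods' t-test called neither gene (Atf4 0.0969, Jdp2 0.0579). Of 14 other early transcription factors 4 rose and 0 fell, Egr2 and Klf6 (0.47, adjusted p = 0.0189) among them. Without Veh-Sham 2 or Veh-TAC 2 only 1 rose and without Veh-TAC 3 it was 2, with Klf6 not called in any of these (0.0763, 0.0678 and 0.0543), and the methods' t-test called 0. The medians were 0.33 and 0.06, beside −0.03 for all genes.

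Of 14 feedback regulators 4 rose and 2 fell in the same comparison (median 0.27). The phosphatase Dusp4, which was not above background in any Veh-Sham heart, was at least 1.681-fold higher (adjusted p = 0.00358, and 0.0518 with the methods' t-test) and Spred1, an inhibitor of the RAS pathway, rose by 0.42 (SE 0.10, adjusted p = 0.00885), whereas Dusp10 and Dusp7 fell by 0.56 and 0.47 (adjusted p = 0.0481 and 0.0356). Neither fall was stable, as Dusp10 was not called in 11 of the 13 settings that leave out 1 heart (adjusted p up to 0.185) nor Dusp7 in 4 (up to 0.131). Without Veh-Sham 3, Veh-TAC 2 or Veh-TAC 3, 2 rose and 0 fell, without Veh-Sham 1 0 fell, and 1 fell without Veh-TAC 1, TUDCA-Sham 1, TUDCA-Sham 2 or any 1 TUDCA-TAC heart. The methods' t-test called 1 higher and 0 lower, and median scaling 0 lower. Of 17 other early response effectors 11 rose and 1 fell (median 0.70), led by Timp1, an inhibitor of matrix metalloproteinases (3.11, SE 0.38, adjusted p = 0.000208), and Cdkn1a, an inhibitor of the cell cycle (1.45, SE 0.15, adjusted p = 8.32e-05), and Gadd45a fell by 0.72 (adjusted p = 0.0105). Leaving out 1 heart gave 5 to 12 that rose, with 5 without Veh-TAC 2 and 7 without Veh-Sham 1, Veh-Sham 2 or Veh-TAC 3, and the methods' t-test called 4. Gadd45a was not called with median scaling (0.0924).

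Of 18 upstream kinases and SRF, ETS and CREB factors 0 rose and 3 fell, including the p38 kinase Mapk14 (−0.72, SE 0.13, adjusted p = 0.00174) and the kinase Rps6ka5 (−0.76, SE 0.16, adjusted p = 0.00458), while with median scaling 1 rose and 1 fell, and with array weights 1 rose and 6 fell. Rps6ka5 was not called with median scaling (0.103) or the methods' t-test (0.0574). Although Myc was not analysed, of 6 of its partners 1 rose and 1 fell, and of 17 growth genes linked to MYC 2 rose and 1 fell, with Nme1 at 0.93 and Cad at −0.80. Without Veh-Sham 1, Veh-TAC 2 or Veh-TAC 3 neither partner was called, without Veh-Sham 2 or TUDCA-Sham 2 only the rise and without Veh-Sham 3 or Veh-TAC 1 only the fall was, and without Veh-TAC 1 the growth genes that fell were 2. Of 14 genes of acute stress and the glucocorticoid response 5 rose and 0 fell, among them the metallothionein Mt2 (1.81, SE 0.21, adjusted p = 0.000163).

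With TUDCA 4 of the 104 related genes were called after TAC (3.85%, beside 1.79% of all genes), 2 higher and 2 lower. Timp1 rose by 2.31 (SE 0.35, adjusted p = 0.0127) and the cyclin Ccnd1 by 0.78 (SE 0.13, adjusted p = 0.0141), although neither was called without TUDCA-Sham 1 (0.0746 and 0.0853) or by the methods' t-test (0.262 and 0.227). Mxi1, an antagonist of MYC, fell by 0.99 (SE 0.17, adjusted p = 0.0210), a call lost without TUDCA-Sham 1 (0.0946), TUDCA-Sham 2 (0.0972) or TUDCA-TAC 3 (0.0592), with array background as a term (0.0790) and with the methods' t-test (0.277). Ddit4, an inhibitor of mTOR signalling, fell by 0.74 (SE 0.16, adjusted p = 0.0460), but it was called in only 2 of the 13 settings that leave out 1 heart, those without Veh-TAC 1 or Veh-TAC 3 (adjusted p up to 0.177 without TUDCA-Sham 2).

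The difference between the responses was called for 4 of the 104 (3.85%, beside 2.14% of all genes), Mt2, Dusp4, Phlda1 and Cdkn1a, all negative. With TUDCA, Cdkn1a was 0.58 higher after TAC, while Mt2 was 0.11 lower, and none of the 4 was called there. Mean Phlda1 was 11.55 in Veh-Sham, 12.24 in Veh-TAC, 12.12 in TUDCA-Sham and 11.81 in TUDCA-TAC. Mean Dusp4 was 6.55 in TUDCA-Sham and 6.05 in TUDCA-TAC. Mean Mt2 was 6.84 in Veh-Sham and 7.37 in TUDCA-Sham, so the sham levels enter these differences too. For Mt2 it was −1.92 (SE 0.29, adjusted p = 0.0157), and the call was lost without Veh-TAC 2 (0.0503) or Veh-TAC 3 (0.0583) and with array background as a term (0.0638). For Dusp4 (adjusted p = 0.0306) no size is given, since Veh-Sham was not above background. Its call was lost without Veh-TAC 2 (0.0995), TUDCA-Sham 2 (0.0673), Veh-TAC 3 (0.0649), any 1 Veh-Sham heart (0.0573 to 0.0622) or TUDCA-TAC 2 (0.0571), and with array background as a term (0.109). For Phlda1, an early gene linked to cell survival, it was −1.01 (SE 0.22, adjusted p = 0.0447), called in 2 of the 13 settings that leave out 1 heart, those without Veh-TAC 1 or TUDCA-TAC 4 (up to 0.122 without Veh-TAC 2). For Cdkn1a it was −0.87 (SE 0.20, adjusted p = 0.0494), called only without TUDCA-TAC 4 (up to 0.142 without Veh-TAC 2).

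Between TUDCA-TAC and Veh-TAC 8 of the 104 were higher and 13 lower (20.2%, beside 16.4% of all genes), and between TUDCA-Sham and Veh-Sham 0 were called.

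Markers of other cell types moved in the same comparisons. Between Veh-TAC and Veh-Sham 3 of 6 fibroblast markers, 3 of 4 macrophage markers and 1 of 4 neutrophil markers were higher. Over all genes 12.5% were called higher and 25.0% were called in either direction. The 1 neutrophil marker called was Il1b, and the other 3 were not called. Mean Il1b in Veh-Sham, 5.41, lay below 6.149, the bound used there for signals not above background. Its call and the level of the neutrophil list thus rest partly on values near background. Of the fibroblast markers, Col1a1 (2.98), Lum (1.27) and Tcf21 (0.61) were called, while Dpt (0.35), Dcn (0.03) and Pdgfra (−0.15) were not. The mean log2 level of the fibroblast list was 12.00 to 12.39 against 11.21 to 11.39, a rise that not all its genes shared. That of the macrophage list was 10.37 to 10.67 against 9.64 to 9.87, and that of the neutrophil list 7.56 to 8.37 against 6.99 to 7.32. With 1 of 7 cardiomyocyte markers lower, that list ran from 13.90 to 14.06 against 13.98 to 14.32. Of 5 endothelial markers 1 was higher and 1 lower, of 5 smooth muscle and pericyte markers 0 were called, and 1 of 2 red blood cell markers and 1 of 4 markers of atrium and adipose tissue were lower. Fibroblast levels in TUDCA-TAC were 11.64 to 11.84, and macrophage levels 9.79 to 10.19. The macrophage markers called numbered 1 without Veh-Sham 3 or Veh-TAC 1, and the neutrophil markers 3 without Veh-TAC 3. The part of these cells in the rise of Atf3 and Ier3 was not tested.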

How the data were processed

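Total RNA of 13 whole hearts was hybridized to Illumina MouseRef-8 v2 arrays, and the authors extracted raw data with GenomeStudio v2011.1 (Gene Expression Module v1.9.0). The authors deposited the raw mean bead intensity of 25697 probes with neither background subtraction nor normalization, with a detection p-value that sets each probe against the negative controls of its array. The authors also deposited normalized log2 values of 11732 probes, which equalled quantile normalized log2 intensity to within 0.119 and held exactly the probes detected on at least 8 arrays. How the authors normalized and filtered that table is not given in the sources used here.

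From the raw table, background was removed by normexp with controls inferred from the detection p-values (offset 16), followed by quantile normalization and log2, in limma 3.58.1 and R 4.3.3. Of 13557 probes detected at p under 0.05 on at least 3 arrays, 11078 had a gene symbol from the platform annotation and 2479 could not be named. That annotation covered the probes of the authors' table, so every named gene was detected on at least 8 arrays. The brightest probe stood for each gene. A means model of 4 groups was fitted to all arrays, moderated by eBayes, with Benjamini-Hochberg adjustment over 8336 genes. The number of arrays limits the precision, and 11647 to 12791 probes were detected on each. The hearts are labelled as biological replicates, and no 2 arrays were identical. The fit and the permutation test were tested on simulated data. Alternatives were the offset, no background correction, the authors' table, median scaling, the detection filter, the mean of all probes, the 2 groups alone, trended and robust eBayes, array weights, array background as a term, a replicate block, the methods' t-test, a 1.5-fold threshold and leaving out hearts.

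Named genes were every measured member, genes from up to 2 rising and 2 falling called genes of each list by the smallest p, and the 5 genes most like Fos. Genes most like Myc could not be sought. None of the 5 lymphocyte markers was among the genes tested. The members and lists were chosen with earlier results of these data known, and the promoter motifs with the values of the members known.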

Additional observations from a re-analysis of the deposited data

How the results depend on the processing

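Atf3 and Ier3 kept their sign between Veh-TAC and Veh-Sham in every setting run. Settings that change only the test, or that leave out a TUDCA heart, could not move these differences. The number of members called between Veh-TAC and Veh-Sham was 2. It was 1 with the methods' t-test (Atf3, while Ier3 had an adjusted p of 0.0930) and 1 to 2 when 1 heart was left out. Between TUDCA-TAC and TUDCA-Sham it was 0, but 1 with median scaling (Junb), 1 at 1.5-fold and unadjusted p with limma and 1 with the methods' t-test (Jund in both), and 0 to 1 when 1 heart was left out. Between TUDCA-TAC and Veh-TAC it was 0, but 1 (Atf3) at 1.5-fold and unadjusted p, and 0 to 1 when 1 heart was left out. By the F-test 3 were called, 5 with median scaling and 5 with array weights, and 2 to 4 when 1 heart was left out.

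Of 28 pairs of members 5 varied together within groups, against 1 with median scaling, 2 by Spearman rho, 2 with array background removed, and 0 to 6 when 1 heart was left out. It was 0 without TUDCA-TAC 3 and 4 and 0 in the 8 hearts of the brighter arrays (a split added after the data were seen), where the smallest adjusted p that a pair alone can reach is 0.0648 and 0.389, so these 0 counts say nothing of stability. Of 1176 member differences recomputed, 52 had the other sign, and 0 of those were called in either setting. Many of the 1176 could not move, since some settings change only the test or the rule for a call. Leaving out a heart of a group not compared also leaves a difference as it was. The count of 52 is therefore no measure of how stable the signs are. The cause of the changes in pairs and in sign was not tested.

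The replicate numbers were not used as a pairing in the main fit. Of 18 same-numbered pairs of hearts 8 had r over 0.1, with r from −0.381 to 0.438. Differently numbered pairs were not compared, so these values cannot decide whether a pairing exists. With the replicate block 2 members were again called between Veh-TAC and Veh-Sham and 0 in the other comparisons, and the F-test called 4. Under the block TUDCA-TAC 4, the only heart numbered 4, was fitted exactly and added nothing. Jund lies near the background, as does Fos in its lowest hearts, and there the signal limits what a fold can show. Groups of 3 or 4 hearts leave an interval of several fold for Fos.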
